A study of Thermothelomyces thermophilus ATCC 42464 with 4 samples.

Results

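The genes described here encode 2 cellobiohydrolases and 3 endoglucanases of *Myceliophthora thermophila*, a thermophilic fungus that lives on plant cell walls. They are *Mycth_109566* (*Mtcbh-1*), *Mycth_66729* (*cbh-2*), *Mycth_86753* (*gh5-1*), *Mycth_76901* and *Mycth_111372*. They were taken by identifier, and all 5 were found among the 8716 genes of the deposited table. The study asked how the loss of a Cys2His2 zinc finger regulator alters cellulase transcription. Tested were 2 RNA-seq libraries of the strain labelled ΔMtTrh-1, whose genotype is given as a deletion of *MtTrh-1*, and 2 libraries of the wild type (WT), both in the background of strain ATCC 42464. Mycelia of both strains were grown for 16 h in 2% glucose at 45°C, washed, and moved to 2% Avicel, a crystalline cellulose, for 4 h. Separate cultures are not stated in the labels for the 2 libraries of a strain, nor whether the deletion strain is 1 transformant. The study's methods speak of independent biological replicates, but for sets of 3, and that statement was not carried over to these sets of 2. A p-value here thus reflects the spread between the sequenced libraries alone, and that spread may be technical.

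Cellulose is a crystal of unbranched glucose chains, and fungi degrade it outside the cell with secreted enzymes that act together. Endoglucanases cut at random inside the less ordered stretches of a chain and so make new chain ends. Cellobiohydrolases, also called exoglucanases, hold a chain by its end and move along it, releasing the disaccharide cellobiose. In related fungi, enzymes of the CBH1 type start at the reducing end and those of the CBH2 type at the nonreducing end. Lytic polysaccharide monooxygenases (LPMOs) break the crystal surface by oxidation, with electrons that cellobiose dehydrogenase can supply, and beta-glucosidases split cellobiose into glucose.

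Transcript levels were read as FPKM, fragment numbers scaled to gene length and to the mapped fragments of the library, which allows a comparison of levels between genes per unit of length. The FPKM of a library summed to 725984 to 729297 in the ΔMtTrh-1-labelled libraries and 736989 to 741923 in WT. The number of fragments behind the values is unknown. *Mycth_90344*, which the study names *Mttrc-1* and which is taken to be the *MtTrh-1* of the labels, stood at 215.45 and 223.41 FPKM in the ΔMtTrh-1-labelled libraries, against 13.29 and 14.47 FPKM in WT. The level of the gene presumed deleted was thus higher under the deletion label, and that the names mean the same gene was not tested. For this reason the strain is called by its label throughout, and each direction below is that of the labels. Fold changes are on the log2(FPKM + 1) scale and come from limma, fitted over the 7525 genes that averaged 1 FPKM or more, all 5 cellulase genes among them, with Benjamini-Hochberg adjustment. Limma draws the variance of each gene toward a trend with level over all genes tested. A standard error, interval or p-value from it thus rests in part on the spread of other genes between the libraries. A gene was called lower or higher when its adjusted p was under 0.05 and it changed by more than 2-fold, the thresholds of the study's methods.

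All 5 cellulase genes were lower in the ΔMtTrh-1-labelled libraries, by 2.48-fold to 3.61-fold. *Mtcbh-1* and the endoglucanase gene *Mycth_111372* fell by the most, and *cbh-2*, *gh5-1* and *Mycth_76901* lay close together at a smaller fall. Among all genes tested, 4.96% were called lower by the same rule. *Mtcbh-1*, *cbh-2*, *gh5-1* and *Mycth_76901* were picked out by the study from its transcriptomes of a *Mttrc-1* deletion strain and WT, so the count of 5 is not independent evidence of direction.

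*Mtcbh-1* (*Mycth_109566*), the cellobiohydrolase gene named exoglucanase 1 in the study, was the most abundant transcript in both WT libraries. It stood at 4339 and 3953 FPKM in the ΔMtTrh-1-labelled libraries, against 13240 and 16027 FPKM in WT. The groups did not overlap. The log2 fold change in limma was −1.81 (standard error, SE, 0.10, adjusted p = 2.3e-07), which is 3.52-fold lower with a 95% interval of 3.03 to 4.08. *Mtcbh-1* also had the widest gap between replicates of the 5 genes. Its WT libraries differed 1.21-fold, and 99.1% of the 1079 genes that averaged 100 FPKM or more had a smaller gap between the WT libraries. Taken library against library, the fall of *Mtcbh-1* ranged from 3.05-fold to 4.05-fold.

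*cbh-2* (*Mycth_66729*), the other cellobiohydrolase gene, stood at 2452 and 2501 FPKM in the ΔMtTrh-1-labelled libraries, against 6096 and 6210 FPKM in WT. The replicates of each strain lay within 1.02-fold of each other, and the groups did not overlap. The log2 fold change in limma was −1.31 (SE 0.06, adjusted p = 6.4e-08), or 2.48-fold lower with a 95% interval of 2.27 to 2.72. This was the smallest fall of the 5, and its limma interval lies below that of *Mtcbh-1*. Both intervals use variances drawn toward the trend over all genes, while the WT gap of *Mtcbh-1* was unusually wide. The separation of the intervals is thus no test of a difference between the 2 falls. For the ratio of the 2 genes, an exact permutation test over libraries gave p = 0.33, the smallest it can give. The difference between the falls of these genes is described by their ratio below.

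Among the endoglucanase genes, *gh5-1* (*Mycth_86753*) was by far the most abundant. It stood at 2882 and 2866 FPKM in the ΔMtTrh-1-labelled libraries, against 7356 and 7669 FPKM in WT. In every library it was above *cbh-2*, and the groups did not overlap. Limma gave a log2 fold change of −1.39 (SE 0.06, adjusted p = 5.8e-08), or 2.61-fold lower.

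*Mycth_76901*, named endoglucanase V in the study, had the lowest level of the 5 genes in every library. It stood at 264 and 248 FPKM in the ΔMtTrh-1-labelled libraries, against 687 and 666 FPKM in WT. Both libraries labelled ΔMtTrh-1 were below both WT libraries. The log2 fold change in limma was −1.40 (SE 0.05, adjusted p = 1.9e-08), or 2.64-fold lower.

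*Mycth_111372*, described only as an endoglucanase, fell about as far as *Mtcbh-1*, and which of them fell further turns with the library left out. It stood at 374 and 362 FPKM in the ΔMtTrh-1-labelled libraries, against 1248 and 1422 FPKM in WT. As for *Mtcbh-1*, WT replicate 2 was the higher WT library, here by 1.14-fold, a gap larger than that of 94.5% of genes that averaged 100 FPKM or more. The groups did not overlap, and the log2 fold change in limma was −1.85 (SE 0.07, adjusted p = 1.4e-08), or 3.61-fold lower with a 95% interval of 3.26 to 4.00.

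**Figure D1:**
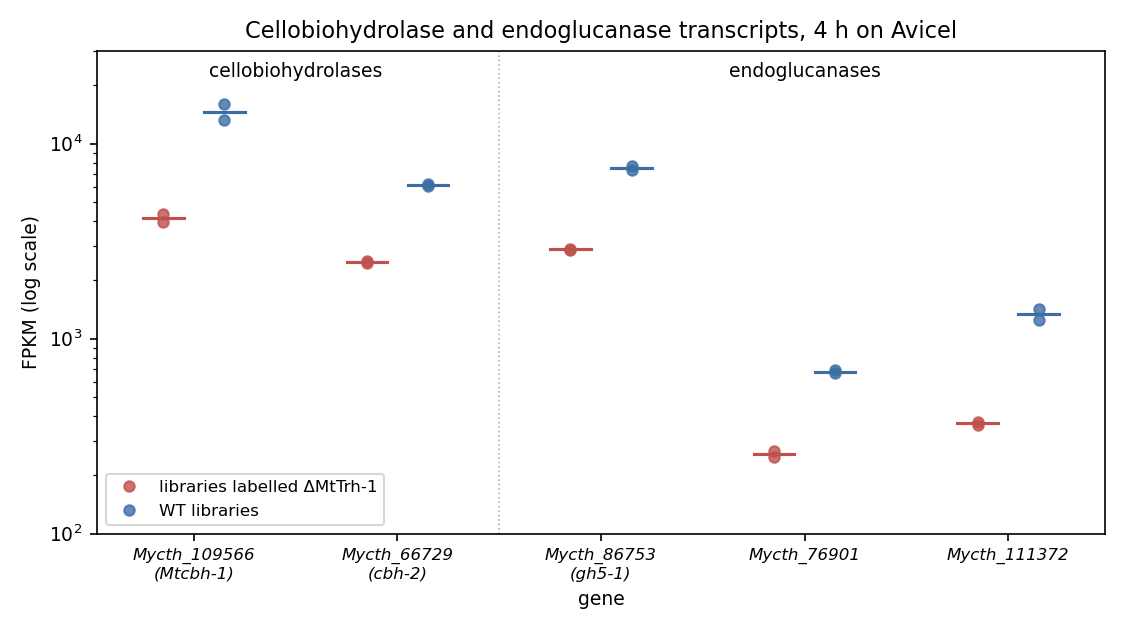
FPKM of the 5 genes on a log axis, each point 1 library and each bar the mean of 2 libraries, with the libraries labelled ΔMtTrh-1 left of WT. For each gene both libraries labelled ΔMtTrh-1 sit below both WT libraries, from the 4339 and 3953 FPKM of *Mtcbh-1* under the ΔMtTrh-1 label against 13240 and 16027 FPKM in WT, down to the 264 and 248 FPKM of *Mycth_76901* under that label against 687 and 666 FPKM in WT.

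The median log2 fold change of the 5 genes was −1.40, whereas the median over the 7525 genes tested was 0.03. Only 116 genes tested had a lower fold change than *Mtcbh-1*, and 238 had a lower one than *cbh-2*. That the libraries of the strains do not overlap says little by itself, because 39% of all genes tested had both libraries labelled ΔMtTrh-1 below both WT libraries. Of the 159 genes that averaged 1000 FPKM or more, 8.81% were called lower. This class and its lower calls include *Mtcbh-1*, *cbh-2* and *gh5-1* themselves.

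**Figure D2:**
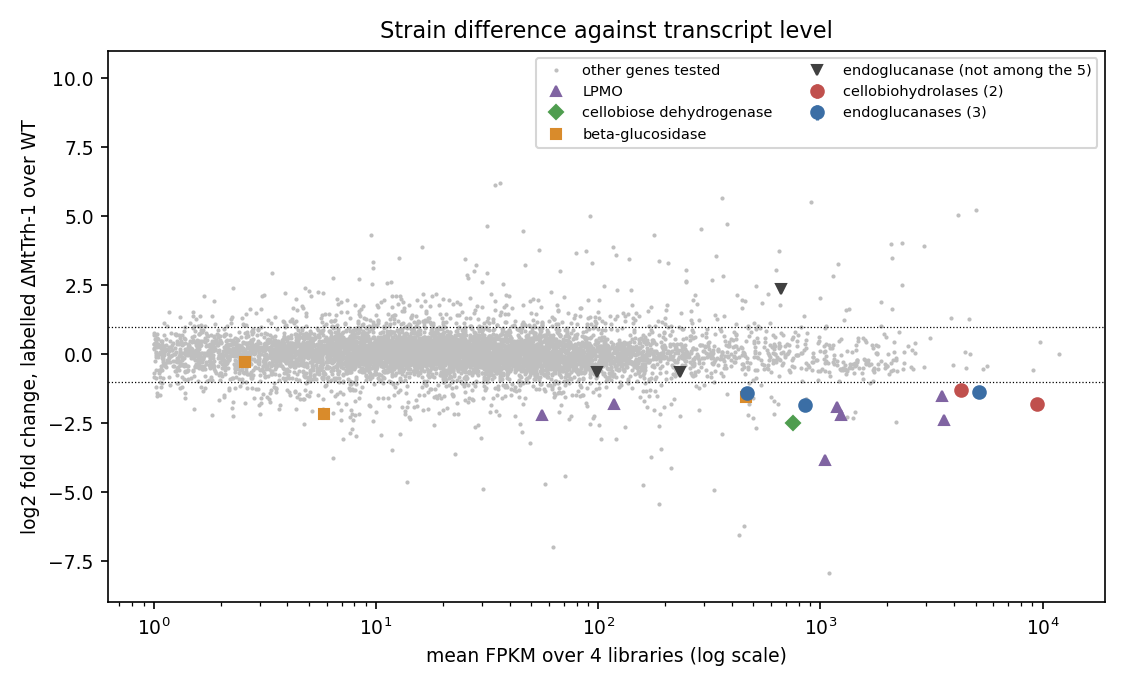
Log2 fold change, labelled ΔMtTrh-1 over WT, against the mean FPKM of the 4 libraries (log axis) for the genes tested, with the 5 cellulase genes (circles with standard errors) and the other listed cellulose degradation genes marked. Dotted lines stand at a log2 fold change of −1 and 1; the 5 circles lie between −1.31 and −1.85, at the high end of the level axis for *Mtcbh-1*, *gh5-1* and *cbh-2*.

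Together the 5 genes took 1.41% and 1.37% of total FPKM in the ΔMtTrh-1-labelled libraries, against 3.86% and 4.34% in WT. The mean share was 1.39% ± 0.03 (SD, n = 2) in the ΔMtTrh-1-labelled libraries and 4.10% ± 0.34 in WT. With 2 libraries a strain, an exact permutation test over libraries (two-sided) cannot go below p = 0.33, and it gave p = 0.33 for this share. In FPKM, the 5 genes summed to 10120 ± 270 in the ΔMtTrh-1-labelled libraries and 30311 ± 2381 in WT. This is 20190 FPKM less, of which *Mtcbh-1* made up 51.9%, *gh5-1* 23.0%, *cbh-2* 18.2%, *Mycth_111372* 4.79% and *Mycth_76901* 2.08%. *Mtcbh-1* alone took 0.570% ± 0.036 of total FPKM in the ΔMtTrh-1-labelled libraries and 1.98% ± 0.28 in WT.

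The make-up of the 5-gene sum differed as well. *Mtcbh-1* supplied 42.1% and 39.8% of it in the ΔMtTrh-1-labelled libraries, against 46.3% and 50.1% in WT. *gh5-1* supplied 28.0% and 28.9% in the ΔMtTrh-1-labelled libraries, against 25.7% and 24.0% in WT, and *cbh-2* supplied 23.8% and 25.2% in the ΔMtTrh-1-labelled libraries, against 21.3% and 19.4% in WT. *Mycth_111372* was at 3.63% and 3.64% in the ΔMtTrh-1-labelled libraries, against 4.36% and 4.44% in WT, and *Mycth_76901* was at 2.56% and 2.50% in the ΔMtTrh-1-labelled libraries, against 2.40% and 2.08% in WT. Each of these 5 proportions was on 1 side in both libraries labelled ΔMtTrh-1 and on the other in both WT libraries. For each of them the exact permutation test gave p = 0.33, the smallest it can give. As parts of 1 sum, the proportions are not separate observations.

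**Figure D3:**
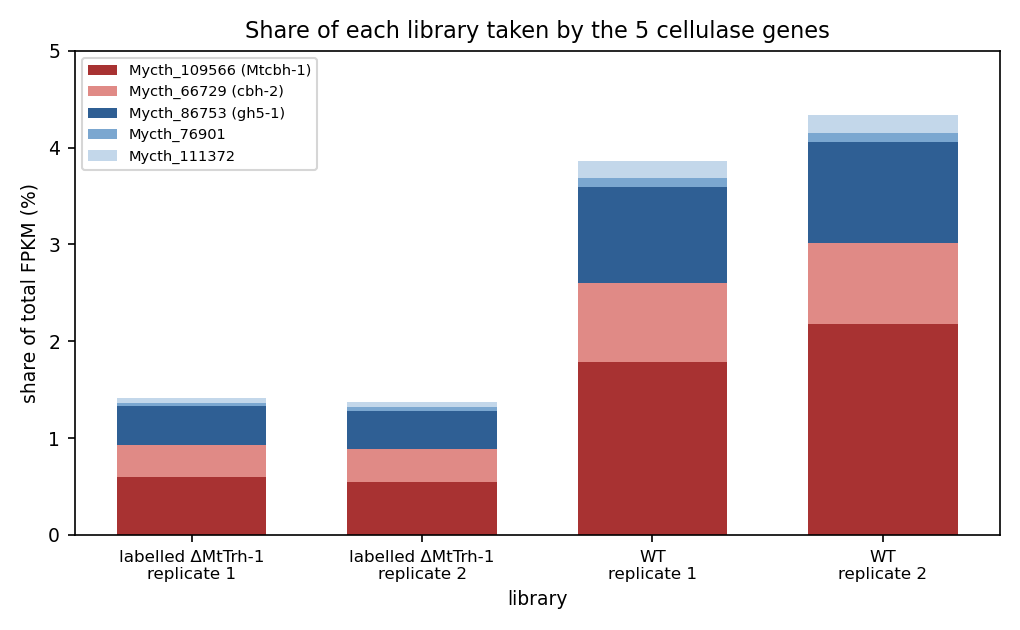
Share of total FPKM (%) taken by the 5 genes in each library, stacked by gene, with cellobiohydrolases in red and endoglucanases in blue. The stacks reach 1.41% and 1.37% in the ΔMtTrh-1-labelled libraries and 3.86% and 4.34% in WT, and *Mtcbh-1* is the largest block in each.

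The rank of each gene within its library moved with its level. *Mtcbh-1* ranked 13 and 15 in the ΔMtTrh-1-labelled libraries, against 1 in both WT libraries. *gh5-1* ranked 23 and 25 in the ΔMtTrh-1-labelled libraries, against 5 in both WT libraries, and *cbh-2* ranked 33 and 30 in the ΔMtTrh-1-labelled libraries, against 9 and 8 in WT. So 3 of the 10 most abundant WT transcripts came from these 5 genes, and none of the 5 was within the first 10 in a library labelled ΔMtTrh-1. *Mycth_111372* ranked 362 and 376 in the ΔMtTrh-1-labelled libraries, against 129 and 104 in WT, and *Mycth_76901* ranked 467 and 488 in the ΔMtTrh-1-labelled libraries, against 217 and 221 in WT. The order of the 5 genes among themselves was the same in all 4 libraries, with *Mtcbh-1* first, then *gh5-1*, *cbh-2*, *Mycth_111372* and *Mycth_76901*. Neighbours in this order were further apart than their replicates in each strain.

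Of the 15 genes within 2 places of the 5 in the order of WT means, 1 was called lower, a share near the 4.96% of all genes. *Mycth_2300304*, which came directly after *Mtcbh-1* in WT, stood at 11731 and 12256 FPKM in the ΔMtTrh-1-labelled libraries, against 11842 and 11810 FPKM in WT, so its groups overlapped. *Mycth_87219* and *Mycth_2304231*, which lay between *gh5-1* and *cbh-2* in WT, had log2 fold changes of −0.44 and −0.54. Directly after *cbh-2* came the LPMO gene *Mycth_112089*, which fell by more than any of the 5, at −2.38 on the log2 scale (limma adjusted p = 8.1e-10).

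**Figure D4:**
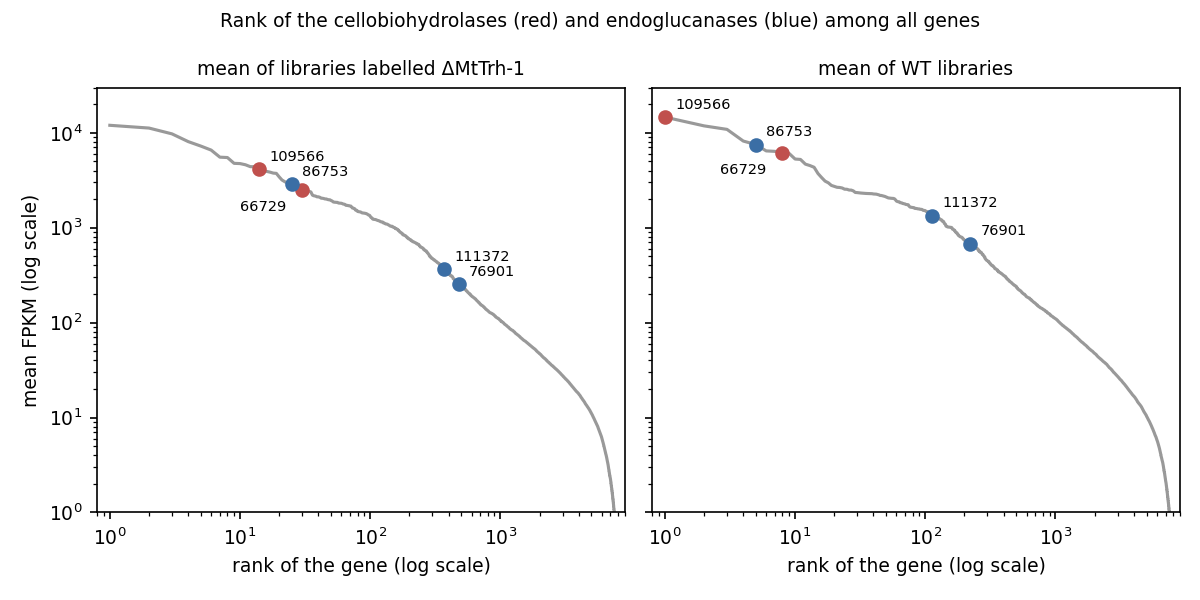
Mean FPKM of every gene against its rank (both log axes), for the libraries labelled ΔMtTrh-1 on the left and WT on the right, with the cellobiohydrolases in red and the endoglucanases in blue, marked by the number of their identifier. In the strain means *Mtcbh-1* stands at rank 14 in the ΔMtTrh-1-labelled libraries and 1 in WT, and *Mycth_76901* at rank 477 in the ΔMtTrh-1-labelled libraries and 220 in WT.

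Ratios of FPKM within a library show the proportions of the 5 genes apart from any scaling of the library. There are 10 pairs, and in 7 of them the libraries of the strains did not overlap. The 10 ratios come from only 5 genes, so they are not separate observations. The share over other pairs of genes was not computed. For a pair without overlap, the exact permutation test over libraries gives p = 0.33, so the count of 7 says little by itself. The largest difference was in *cbh-2* to *Mycth_111372*, with 6.55 and 6.92 in the ΔMtTrh-1-labelled libraries, against 4.88 and 4.37 in WT. The ratio of *Mtcbh-1* to *cbh-2*, named exoglucanase 1 and 2 in the study, was 1.77 and 1.58 in the ΔMtTrh-1-labelled libraries, against 2.17 and 2.58 in WT. In log2 units these ratios differed by 0.54 and −0.50 between the strains. Both are more than the widest gap between replicates, which was 0.16 for the first and 0.25 for the second.

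The 3 pairs that overlapped were *Mtcbh-1* to *Mycth_111372*, *gh5-1* to *Mycth_76901*, and *cbh-2* to *Mycth_76901*. *Mtcbh-1* to *Mycth_111372* stood at 11.6 and 10.9 in the ΔMtTrh-1-labelled libraries, against 10.6 and 11.3 in WT. *gh5-1* to *Mycth_76901* stood at 10.9 and 11.6 in the ΔMtTrh-1-labelled libraries, against 10.7 and 11.5 in WT. Both pairs kept their proportion within the gap between replicates, one across the cellobiohydrolase and endoglucanase classes and one inside the endoglucanases. By the exact permutation test over libraries, the p-values adjusted over the 10 pairs were 0.48 to 0.67, so no pair could pass the threshold.

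**Figure D5:**
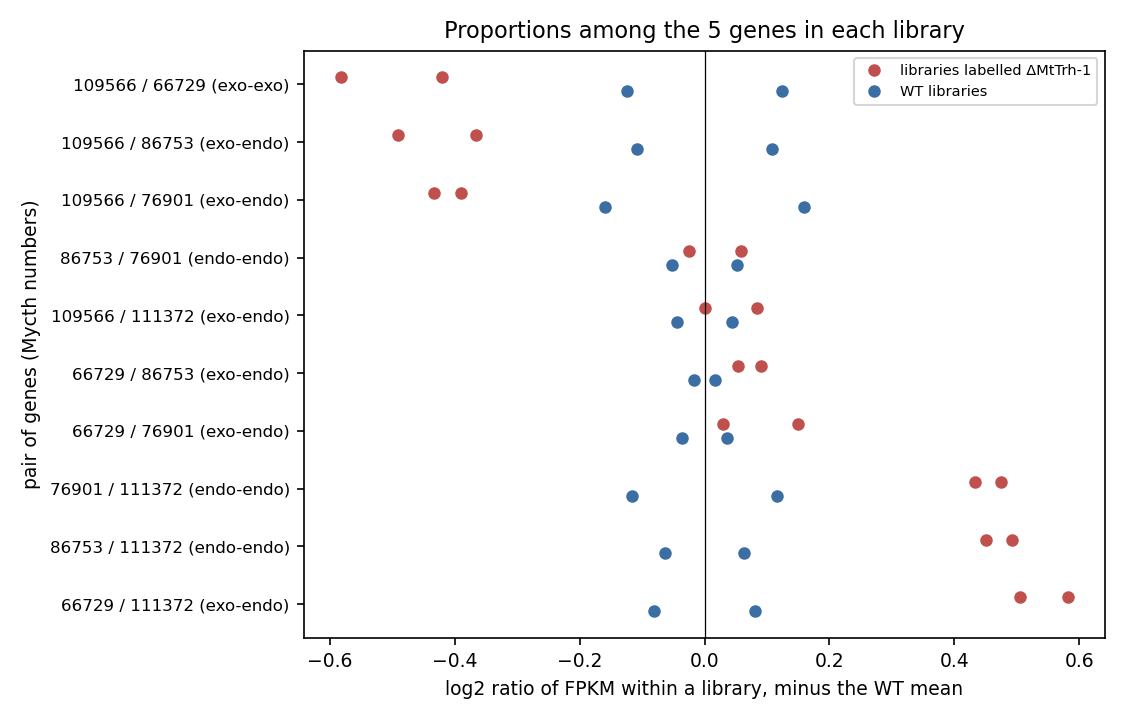
Log2 ratio of FPKM for the 10 pairs of genes in each library, minus the WT mean of the pair, ordered by the difference between the strains, with the 2 libraries labelled ΔMtTrh-1 in red above the 2 WT libraries in blue. Pairs of *Mtcbh-1* with *cbh-2*, *gh5-1* or *Mycth_76901* lie left of WT and pairs of these 3 with *Mycth_111372* lie right of it, while *Mtcbh-1* to *Mycth_111372* is centred near 0.

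Summed over the classes, cellobiohydrolases outweighed endoglucanases in every library. The ratio of the cellobiohydrolase sum to the endoglucanase sum was 1.93 and 1.86 in the ΔMtTrh-1-labelled libraries, against 2.08 and 2.28 in WT. The mean was 1.89 ± 0.05 in the ΔMtTrh-1-labelled libraries and 2.18 ± 0.14 in WT (SD, n = 2 each), and the exact permutation test gave p = 0.33, the smallest it can give. This lower ratio rests on the most abundant gene of each class. With *cbh-2* alone over the endoglucanase sum, the ratio was higher, at 0.696 and 0.720 in the ΔMtTrh-1-labelled libraries, against 0.656 and 0.637 in WT. With *gh5-1* left out of the endoglucanase sum, the strains overlapped, at 10.6 in both ΔMtTrh-1-labelled libraries, against 9.99 and 10.7 in WT. When each of the 6 pairs of a cellobiohydrolase with an endoglucanase had equal weight, the geometric mean was 4.96 and 4.95 in the ΔMtTrh-1-labelled libraries, against 4.86 and 5.15 in WT, and the strains overlapped. The genes with the larger falls, *Mtcbh-1* and *Mycth_111372*, come 1 from each class of enzyme.

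*Mtcbh-1* and *Mycth_111372* also had similar profiles when compared with other genes. Likeness was measured as the Euclidean distance between log2(FPKM + 1) values, centred on the mean of each gene over the 4 libraries, among genes that averaged 100 FPKM or more. Of the 1078 genes compared, *Mycth_111372* was the nearest to *Mtcbh-1*, at a distance of 0.095. The next were *Mycth_100068*, described as a glycoside hydrolase of a xylanase family, and the LPMO gene *Mycth_111088*. For *Mycth_111372* the order was *Mycth_111088*, *Mtcbh-1* and *Mycth_116384*, described as an oligoxyloglucanase.

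The other 3 genes lay near each other in the same measure. *gh5-1* was the third nearest to *cbh-2*, at 0.081, after *Mycth_2311494* and *Mycth_99077*. For *gh5-1* the order was *Mycth_2311494*, *cbh-2* and *Mycth_76901*, and for *Mycth_76901* it was *Mycth_60267*, *gh5-1* and *Mycth_2296904*. From *Mtcbh-1* to *cbh-2* the distance was 0.544, and 37 genes were nearer to *Mtcbh-1*. With 2 libraries a strain, such a distance is set mostly by the fold change and by which replicate of a strain was higher.

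The study's text and its product descriptions gave a list of 17 other genes of cellulose degradation. Product descriptions were at hand for only part of the study's genes, so the list may leave out others. Of the 17, 3 of the LPMO type were not found among the genes analysed here, and 14 were tested. Of these, 10 fell and 1 rose under the ΔMtTrh-1 label, while 3 missed a threshold, beside 4.96% of all genes called lower and 5.3% called higher. With no fold threshold, 12 were lower at an adjusted p under 0.05 (limma), beside 31.3% of all genes. The median log2 fold change of the 14 was −1.86. Several of them were also picked out by the study, so the count is not independent evidence. Their summed share of total FPKM was 0.820% ± 0.003 (SD, n = 2) in the ΔMtTrh-1-labelled libraries and 2.72% ± 0.07 in WT.

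The median fall of the listed LPMO genes tested, which act by oxidation, was beyond that of each of the 5 cellulase genes. All 7 LPMO genes tested were lower, with a median log2 fold change of −2.19 and a range set by *Mycth_110651* at −1.53 and *Mycth_80312* at −3.85. The cellobiose dehydrogenase gene *Mycth_81925* stood at 221 and 230 FPKM in the ΔMtTrh-1-labelled libraries, against 1298 and 1270 FPKM in WT. Of 3 listed beta-glucosidase genes, *Mycth_115968* was lower, with a log2 fold change of −1.56. *Mycth_66804* was lower at a low level, with 1.59 and 1.38 FPKM in the ΔMtTrh-1-labelled libraries against 10.1 and 10.3 FPKM in WT. The remaining gene, *Mycth_2059579*, did not pass the test, at 2.46 and 1.95 FPKM in the ΔMtTrh-1-labelled libraries against 3.05 and 2.80 FPKM in WT.

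Of the 3 other listed genes described as endoglucanases, none was called lower and 1 was called higher. With no fold threshold, 2 were lower in limma. *Mycth_109444* stood at 78.0 and 76.8 FPKM in the ΔMtTrh-1-labelled libraries, against 119 and 123 FPKM in WT, a log2 fold change of −0.64 that is short of the fold threshold. *Mycth_116157* had −0.65, with 185 and 176 FPKM in the ΔMtTrh-1-labelled libraries against 287 and 282 FPKM in WT. *Mycth_2090891*, described as a barwin-related endoglucanase, was higher, with 1153 and 1086 FPKM in the ΔMtTrh-1-labelled libraries against 228 and 205 FPKM in WT. Barwin-related folds also occur in proteins that are not cellulases. How their changes differ from those of *gh5-1*, *Mycth_76901* and *Mycth_111372* was not tested.

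Few genes beside the 5 in the genome were called, as among all genes. In the RefSeq order of assembly ASM22609v1, the 2 nearest genes on each side of every one of the 5 make 20 genes, none of which overlaps its cellulase gene. Of these, 18 were in the deposited table and 15 passed the filter on low values. None of the 15 was called lower, 1 was called higher and 14 missed a threshold, beside 4.96% and 5.3% of all genes called lower and higher, so a count of 0 is near the background. At an unadjusted p under 0.05 in limma 5 were lower and 4 higher. The share of all genes at that threshold was not computed. At the stricter adjusted p under 0.05 with no fold threshold, 31.3% of all genes were lower, and 4926 of 7525 passed in either direction. The counts of 5 and 4 are thus no result about these neighbours. The log2 fold changes of the 15 ran from −0.93 to 1.51, with a median of −0.12. The lowest was that of *Mycth_2122637*, directly beside *gh5-1* and the most abundant of them, with 691 and 646 FPKM in the ΔMtTrh-1-labelled libraries, against 1244 and 1309 FPKM in WT. The highest was that of *Mycth_2299975*, near *cbh-2* and almost silent, with 2.44 and 2.00 FPKM in the ΔMtTrh-1-labelled libraries against 0.130 and 0.120 FPKM in WT.

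The actin gene used by the study as its control in transcript assays, and a translation elongation factor gene whose promoter serves as a constitutive one, were lower by less than 2-fold under the ΔMtTrh-1 label, with adjusted p of 4.0e-04 and 0.0011 in limma. Actin (*Mycth_2314852*) stood at 555 and 612 FPKM in the ΔMtTrh-1-labelled libraries, against 776 and 741 FPKM in WT. The elongation factor gene *tef-1* (*Mycth_2298136*) stood at 3294 and 3554 FPKM in the ΔMtTrh-1-labelled libraries, against 4775 and 4254 FPKM in WT. Their log2 fold changes were −0.38 and −0.40, short of the fold threshold. Set against actin in the same library, *Mtcbh-1* stood at 7.81 and 6.46 times its level in the ΔMtTrh-1-labelled libraries, against 17.1 and 21.6 times in WT. *cbh-2* stood at 4.42 and 4.08 times actin in the ΔMtTrh-1-labelled libraries, against 7.86 and 8.38 times in WT, and its fold change then fell short of 2-fold, with a log2 value of −0.93. Scaled in this way the median of all genes moved to 0.38. This scaling shifts all genes by nearly the same amount, so relative to that median *cbh-2* returned by arithmetic to −1.31. That value is thus no check of its fall. Ratios to *tef-1* gave log2 differences of −0.92 for *cbh-2* and −0.99 for *gh5-1*, both short of 2-fold, and of −1.01 for *Mycth_76901*, just past it. For *Mtcbh-1* and *Mycth_111372* they were −1.42 and −1.46. Whether actin, *tef-1* or the library total is the better standard was not tested.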

How the data were processed

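The authors deposited 1 table of FPKM for 8716 genes in 4 libraries, with values given to 2 decimals. Per the labels, HISAT and Bowtie2 were used, with no version named. For the quantifier and its annotation, and for the genome build, the sources used here give nothing. The study's methods describe mapping with TopHat and tests of raw counts for a data set with 3 replicates, which was not analysed here. Because FPKM is a normalized unit, values were fitted as log2(FPKM + 1) with limma 3.58.1 (R 4.3.3), with an intensity trend, no covariate and Benjamini-Hochberg adjustment over the 7525 genes that averaged 1 FPKM or more. Single values and ratios were compared with exact permutation tests over libraries (scipy 1.17.1), and plots drawn with matplotlib 3.10.9. The 2 decimals do not resolve single fragments, so depth is unknown and no counting interval is given. How reads shared by similar genes were assigned is not known.

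The 5 genes, the lists and the tests were chosen with earlier results of these data known. Genes named are the 5, the gene presumed deleted, actin and *tef-1*, the listed genes of cellulose degradation, and examples from the 2 neighbours on each side in the WT order and in the RefSeq order and from the 3 nearest profiles. All 5 identifiers matched the RefSeq table of ASM22609v1, used only for gene order, since the build of the files is not stated. A further list by RefSeq product names could not be made because that table holds none. Alternatives covered the pseudocount, filter, scaling, variance model, fold threshold, the omission of each library and a replicate block.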

Additional observations from a re-analysis of the deposited data

How the results depend on the processing

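Under each alternative that kept all 4 libraries, *Mycth_109566*, *Mycth_86753*, *Mycth_76901* and *Mycth_111372* stayed lower at both thresholds. In 4 of the 14 alternatives for a gene, a strain kept 1 library, which was assumed to vary like the other strain. For these only the fold changes are given. With all libraries kept, *Mycth_66729* also stayed lower, except when libraries were scaled to equal actin. It was then at −0.93, while *Mycth_86753* at −1.01 and *Mycth_76901* at −1.02 only just passed the fold threshold. The median of all genes then moved to 0.38. That scaling called 232 genes lower and 799 higher, beside 373 and 399 as deposited. With no filter on low values, the adjusted p of the 5 genes in limma was 7.7e-04 to 0.0029, beside 1.4e-08 to 2.3e-07 in the main fit. In limma without the trend it was 2.2e-05 to 6.8e-05. With libraries scaled to equal actin it was 9.6e-44 to 1.3e-18, and with a replicate block 1.7e-193 to 1.3e-70. The size of the adjusted p thus depends on the filter, the variance model, the scaling and the block. With 2 libraries a strain, that size says little. Leaving out each library in turn gave log2 fold changes of −1.95 to −1.68 for *Mycth_109566*, −1.33 to −1.30 for *Mycth_66729*, −1.42 to −1.36 for *Mycth_86753*, −1.44 to −1.35 for *Mycth_76901* and −1.95 to −1.76 for *Mycth_111372*. The log2 difference of the ratio of cellobiohydrolase to endoglucanase sums was −0.20, with −0.27 to −0.14 when a library was left out, and −0.015 with the 6 pairs weighted equally, where the abundant genes no longer dominate. Over all genes, 772 were called, 375 with a pseudocount of 10, by which low genes lose fold, and 4926 with no fold threshold. Same-numbered libraries of the strains did not deviate together (r = −0.020 across genes), and a replicate block called 773 genes. In this balanced design the block leaves each difference as it was by arithmetic, −0.20 for the ratio of sums and −1.56 for the log2 share of the 5 genes, so it is no check of their size. The list by RefSeq product names was not run. Depth is unknown, and 2 libraries a strain limit every test of a ratio or share.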

Other observations

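In the strain means, 13 genes stood above *Mycth_109566* in the ΔMtTrh-1-labelled libraries, where it was first in WT. Of these, 6 were called higher and 7 did not pass both thresholds in limma, beside 5.3% of all genes called higher. The 13 genes were picked by their level under the ΔMtTrh-1 label, which favours higher calls. The count is thus no result about them. *Mycth_82772* stood at 9522 and 9963 FPKM in the ΔMtTrh-1-labelled libraries, against 259 and 255 FPKM in WT. *Mycth_69746* stood at 8156 and 7988 FPKM in the ΔMtTrh-1-labelled libraries, against 252 and 230 FPKM in WT. These genes, chosen after their values were seen, ranked 3 and 4 in the ΔMtTrh-1-labelled libraries and 468 and 496 in WT.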
